A study of Rattus norvegicus with 10 samples.

Results

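The miRNAs described here are those that rodent and human studies place mainly in blood and immune cells. They are the red blood cell miRNAs rno-miR-451, rno-miR-144 and rno-miR-486, the white blood cell miRNAs rno-miR-142-3p, rno-miR-142-5p, rno-miR-150 and rno-miR-223, and the inflammation-induced miRNAs rno-miR-155, rno-miR-146a and rno-miR-146b. They were chosen by name, and not by their values, although earlier results of these data were known. Of the 10 listed, 8 had a probe of that name among the 679 rat miRNA probes of the array. rno-miR-486 and rno-miR-155 had none and were not analysed here.

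A miRNA is a short RNA that binds messenger RNAs mainly through its seed, the bases from position 2 to position 8, and lowers their translation or stability. Blood cells carry a few miRNAs at very high copy number, so that a piece of brain removed with its vessels also holds the miRNAs of the blood inside them, besides those of microglia, the resident immune cells of the brain. miR-155, miR-146a and miR-146b are switched on in macrophages and microglia by inflammatory stimuli.

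The mPFC, the medial prefrontal cortex, was dissected from 10 rats, 5 given morphine and 5 given saline, and each rat was measured on 1 array. All were wild-type Sprague Dawley rats aged 2 months. Over 5 days the morphine rats received 2 intraperitoneal injections daily. The dose of each was 10 mg/kg on the first day, 20 mg/kg on the next, then 30 mg/kg, and 40 mg/kg on the last 2 days. The saline rats were injected with saline on the same schedule. The comparison asks which miRNAs of the mPFC differ after chronic morphine. Total RNA of the whole tissue piece was labeled, so that fewer cells of a type and less RNA per cell cannot be told apart.

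The mature sequences of the members with a probe are shown because each probe reads 1 short RNA, and because the seeds show which members could bind the same messenger RNAs. RefSeq holds a mature entry for 7 of the 8, with coordinates on GRCr8. The seed is in capitals.
rno-miR-451: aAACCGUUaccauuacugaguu
rno-miR-144: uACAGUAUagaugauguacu
rno-miR-142-3p: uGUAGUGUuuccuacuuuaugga
rno-miR-142-5p: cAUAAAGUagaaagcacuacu
rno-miR-223: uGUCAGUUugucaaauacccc
rno-miR-146a: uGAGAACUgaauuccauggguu
rno-miR-146b: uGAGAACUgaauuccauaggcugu

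These 7 sequences held 6 different seeds. Only miR-146a and miR-146b shared one, GAGAACU. Over the 22 bases they have in common, counted from the 5′ end with the miR-146a base first, they differed by G18A and U21C, and miR-146b was 2 bases longer at its 3′ end. miR-144 (chr10:63459446-63459465) and miR-451 (chr10:63459585-63459606) lie on the plus strand of chromosome 10 with 89 bases between their hairpins, and RefSeq places no other gene over them. Both arms of the miR-142 hairpin, miR-142-5p (chr10:73055119-73055139) and miR-142-3p (chr10:73055155-73055177), lie on the plus strand within the span of the protein-coding gene Tspoap1. miR-146a (chr10:28350053-28350074, minus strand) and miR-223 (chrX:65151450-65151470, plus strand) lie within the spans of long noncoding RNA genes, and miR-146b (chr1:255144874-255144897, plus strand) within that of C1h10orf95. The Mir150 gene spans chr1:104741487-104741571, and no other gene covers it. Tspoap1 and the other genes that span these hairpins were not measured by the array, and their strands were not compared with those of the hairpins.

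Values are background-subtracted spot intensities on a linear scale, averaged over the 4 spots of a probe and scaled between arrays. A value below 0 means that the spot was darker than the glass around it. A value of 30 before scaling was used as the detection minimum, and 30 as the floor before log2. The local background of the arrays was 63 to 141 (median 125) for morphine and 84 to 348 (median 188) for saline. Each morphine array detected 260 to 419 of the rat miRNA probes and each saline array 180 to 281. The negative-control probes, which match no rat miRNA, had a median of −67 to 9.5 on morphine arrays and of −186.2 to −27.2 on saline arrays after background subtraction, so that a probe at background read lower on saline arrays. For the members, the foreground was therefore also measured against the negative controls of the same array. Morphine replicates 3 and 5 were the most alike pair of morphine arrays (r = 0.971 across probes, against 0.628 to 0.852 for the other morphine pairs), although no probe had the same value on both. The labels give them as separate rats.

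The tissue label was compared with 6 neuron miRNAs. On the saline arrays, 5 of the 6 were below 30 in every rat, and the sum of the 6 was 507 to 1349, against 32068 to 105901 on the morphine arrays. miR-9 averaged 12314 ± 8524 on morphine arrays and −125.8 ± 114 on saline arrays, and miR-128 averaged 7709 ± 4390 and −77.07 ± 63.5 (SD, n = 5 each). The sixth, miR-124, averaged 51449 ± 16345 and 956.5 ± 328. All 6 rose in the limma fit of 301 probes, in which 32.6% of the probes rose. The 5 that were below 30 in every saline rat entered that fit through the morphine arrays alone. Most defining miRNAs of neurons were thus below the detection minimum on the arrays labeled as saline mPFC. This difference goes along with every result below, and its part in them was not tested. Treatment and this difference between the groups of arrays cannot be told apart.

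miR-451 and miR-144 are made in red blood cell precursors from 1 shared transcript in mouse, and miR-451 stays abundant in the mature red cell. Both were higher on all 5 morphine arrays than on any saline array. miR-451 had scaled intensities of 458, 146.2, 2440, 1058 and 2478 in morphine replicates 1 to 5, against 15.1, −8, 65.5, −104.3 and −100.1 in saline replicates 1 to 5. Only saline replicate 3 reached the detection minimum, and morphine replicates 3 and 5 were far above the other morphine arrays. The mean was 1316 ± 1093 for morphine and −26.36 ± 74.1 for saline (SD, n = 5 each). The difference was 4.59 ± 0.728 on the log2 scale (SE, 95% interval 3.02 to 6.16, adjusted p = 0.000251, limma over 301 probes). As 4 of 5 saline arrays were below 30, its size depends on the floor, at 5.74 with a floor of 10 and 3.08 with a floor of 100, and it passed with either (adjusted p = 0.000188 and 0.0127, limma).

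miR-144 gave 28.9, 94.4, 697, 225.2 and 595.5 on the morphine arrays, against −33.8, −97, −22.2, −195.8 and −216.7 on the saline arrays. No saline array came near the detection minimum, and morphine replicate 1 was just at it. The log2 difference was 2.68 ± 0.756 (SE, interval 1.05 to 4.31, adjusted p = 0.0122, limma). Because miR-144 was below 30 on every saline array, its fold change is only bounded. The bound sets the mean log2 value of the morphine arrays, after the floor of 30, against a limit on each saline array. That limit is the highest of 30, the lowest signal of any probe detected there and the probe's own value. By this bound miR-144 was at least 5.82-fold higher in morphine. Here and below, such a bound concerns the means of these arrays and carries no sampling error, unlike the interval, which here began at 1.05 on the log2 scale. The call of miR-144 was lost when all 679 rat probes were fitted without a detection filter (adjusted p = 0.0665, limma), whereas miR-451 still passed (adjusted p = 0.00578).

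The filter bears on these counts. A probe entered the limma fit when it reached 30 on at least 5 of the 10 arrays, and 5 members did so: miR-451, miR-144, miR-142-3p, miR-142-5p and miR-150. All 5 reached 30 on every morphine array, so they would have been fitted through the morphine group alone and had to differ where saline was at background. All 5 rose and none fell, in a fit in which 32.6% of the 301 probes rose and 11.6% fell, and no more is read from this count. In the fit of all 679 probes, where every member entered, miR-451, miR-150 and miR-146b rose and the other 5 did not pass. That makes 3 of 8 members, against 11.0% of all 679 probes that rose and 3.68% that fell. The median log2 difference of the 8 members was 2.76 in that fit, and that of the 679 probes was 0.00. Of the 679, 210 were below 30 on all 10 arrays, so their median says little about detected probes. Over the 301 probes of the main fit the median was 0.45.

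**Figure D1:**
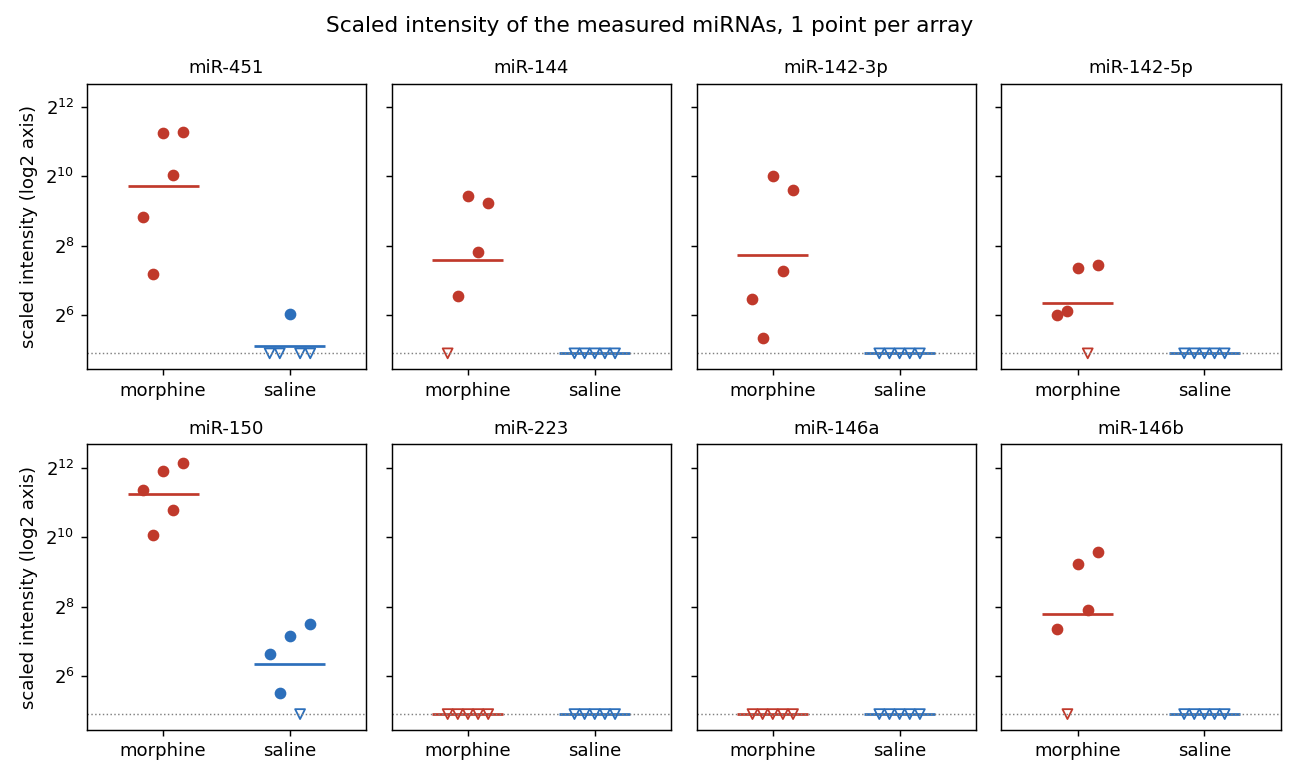
Scaled intensity of the 8 measured miRNAs on a log2 axis, with 1 point per array, morphine at left and saline at right. Open triangles are values below 30 drawn at the floor (dotted line), and bars are means on the log2 scale. The 5 morphine arrays of miR-150 run from 1069 to 4512 and its saline arrays from 28.3 to 181.9, while all arrays of miR-223 and miR-146a are at the floor.

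The white blood cell miRNAs divided into those that were higher in morphine, miR-150 and both arms of miR-142, and miR-223, which was near or below the detection minimum in both groups. miR-150 is a miRNA of mature lymphocytes, where it lowers the transcription factor Myb in mouse. It gave 2603, 1069, 3823, 1760 and 4512 on the morphine arrays, against 99.4, 45.8, 143.5, 28.3 and 181.9 on the saline arrays. The lowest morphine array, replicate 2, was above the highest saline array, replicate 5. miR-150 was also the only member detected on most saline arrays, 4 of 5, so that it has a fold change with a measured value on both sides. The means were 2754 ± 1421 and 99.8 ± 64.6 (SD, n = 5 each), and the log2 difference was 4.90 ± 0.605 (SE, interval 3.59 to 6.21, adjusted p = 3.81e-05, limma). It passed under every one of the 26 alternatives to the processing, with values of 2.81 to 5.21 and adjusted p-values up to 0.0311.

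miR-142-3p and miR-142-5p come from the 2 arms of 1 hairpin, which is active throughout the blood-forming lineages. miR-142-3p gave 89.2, 41, 1021, 153.7 and 778.4 on the morphine arrays, against −44.9, −89, −23.2, −160 and −189.7 on the saline arrays. The groups did not overlap, and morphine replicates 3 and 5 were again well above the other 3. Its log2 difference was 2.83 ± 0.789 (SE, interval 1.13 to 4.54, adjusted p = 0.0115, limma), with a bound of at least 6.46-fold higher in morphine. Without the filter its adjusted p was 0.0665.

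miR-142-5p was dimmer, at 64.1, 69.6, 164.9, 28.5 and 174.2 on the morphine arrays, against −24.6, −91.6, −6.7, −164.6 and −202.2 on the saline arrays. Again no saline array reached any morphine array. Its log2 difference was 1.46 ± 0.517 (SE, interval 0.34 to 2.58, adjusted p = 0.0338, limma), with a bound of at least 2.5-fold. This call was close to the threshold. It was lost without morphine replicate 3 (1.21, adjusted p = 0.0972) or 5 (1.19, 0.0893). Without any 1 of the saline arrays the difference stayed at 1.46 and the adjusted p was 0.0531 to 0.066. It was also lost with the replicate block (0.0673), and in the unfiltered fit (0.0711). Normexp background correction subtracts the local background, models what background remains, and here added an offset of 50. With it the difference was −0.04 (adjusted p = 0.931, limma).

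miR-223 marks neutrophils and other myeloid cells. It gave −11.4, −1, 4, 28.3 and 9 on the morphine arrays, against −21.4, −41.8, 11.6, −89.6 and −95.4 on the saline arrays. The groups overlapped, and 1 of 5 morphine arrays and 0 of 5 saline arrays reached 30 before scaling. The unfloored means of 5.789 ± 14.7 and −47.34 ± 45.5 differed at p = 0.0476 (exact permutation test, two-sided), which became 0.11 after adjustment over 679 probes. No fold change is given, as both groups were at the floor. Above the median negative control miR-223 lay at 26.2 to 58.5 on morphine arrays and at 6.8 to 115 on saline arrays, and it exceeded every negative control on 3 of 5 morphine and 0 of 5 saline arrays. With normexp its log2 difference was −0.87 (adjusted p = 0.0258, limma), so its direction depended on the background correction.

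Of the inflammation-induced pair, whose sequences differ by 2 bases over their common length, miR-146b was higher in morphine in the fit of all 679 probes and miR-146a was below the detection minimum on every array. miR-146a and miR-146b are induced through NF-kB and lower TRAF6 and IRAK1, adaptors of Toll-like receptor signaling, in human monocytes. miR-146a gave −104.8, −26.6, 27, 0.4 and 23.9 on the morphine arrays, against −380.7, −70.6, −22.7, −211.3 and −404.4 on the saline arrays. The groups overlapped. The unfloored means of −16.03 ± 54.1 and −217.9 ± 174 differed at p = 0.0476 (exact permutation test, two-sided), or 0.11 after adjustment over 679 probes. Single spots weighed on these means, with the lowest at −1019 in saline replicate 1, −1556 in saline replicate 5 and −445 in morphine replicate 1. Above the negative controls miR-146a lay at −5 to 73 on morphine arrays and at −5.2 to 194.2 on saline arrays, so that the groups overlapped there too.

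miR-146b gave 164.6, −11.8, 598.9, 239.5 and 759.6 on the morphine arrays, against −8, −64.7, 5.4, −137.6 and −80.6 on the saline arrays. It was detected on 4 of 5 morphine arrays and on 0 of 5 saline arrays. Morphine replicate 2 lay below the highest saline array, so the groups overlapped by that 1 array. It missed the filter of the main fit for the same reason. Over all 679 probes its log2 difference was 2.89 ± 0.811 (SE, interval 1.03 to 4.74, adjusted p = 0.0472, limma), with a bound of at least 6.71-fold higher in morphine. That call was lost in 9 of 10 fits that left out 1 array (adjusted p = 0.0785 to 0.115). Only without morphine replicate 2 did it hold, at 3.61 (adjusted p = 0.00128). An exact permutation test of the unfloored values gave p = 0.0238 (two-sided), or 0.0792 after adjustment over 679 probes. The difference between miR-146b and miR-146a was not tested, as levels of different probes are not comparable. With 2 mismatches, whether the probes tell the 2 miRNAs apart is not given in the sources used here.

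Without the floor, all 5 morphine arrays lay above all 5 saline arrays for 5 of the 8 members, miR-451, miR-144, miR-142-3p, miR-142-5p and miR-150. The same held for 15.3% of the 679 rat probes, and the opposite, with all morphine arrays lower, for 3.68% of them and for none of the members. The exact permutation p of each of the 5 was 0.00794, the smallest that 5 against 5 arrays allow, and 0.0418 after adjustment over the 679 probes. These unfloored values carry the background offset between the groups. With the floor, in the 301-probe set, the exact permutation test lost miR-144 and miR-142-5p (adjusted p = 0.102 each) and kept the other 3. Of the 210 rat probes below 30 on all 10 arrays, 2.38% had all morphine values above all saline values.

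Measured as foreground above the median negative-control probe of the same array, before scaling, the same 5 members kept their separation. miR-451 lay at 244.2 to 2452 on morphine arrays and at 51.8 to 127.2 on saline arrays. miR-144 lay at 88.2 to 622.5 and −21.5 to 1.2, and miR-142-3p at 118 to 865.5 and −15 to 27.2. On the saline arrays these last 2 thus read like probes that match no rat miRNA. miR-142-5p lay at 25 to 213.5 on morphine arrays and −3.5 to 16.5 on saline arrays. miR-150 lay at 1426 to 4440 and 143 to 368.5, and it was above every negative control on all 10 arrays. miR-146b lay at 54.2 to 789 on morphine arrays and 29 to 135.2 on saline arrays, where the 2 groups overlapped as before. After scaling on this baseline, 5 members had all morphine arrays above all saline arrays. So had 74 of the 679 rat probes, and 67 had all morphine arrays below.

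**Figure D2:**
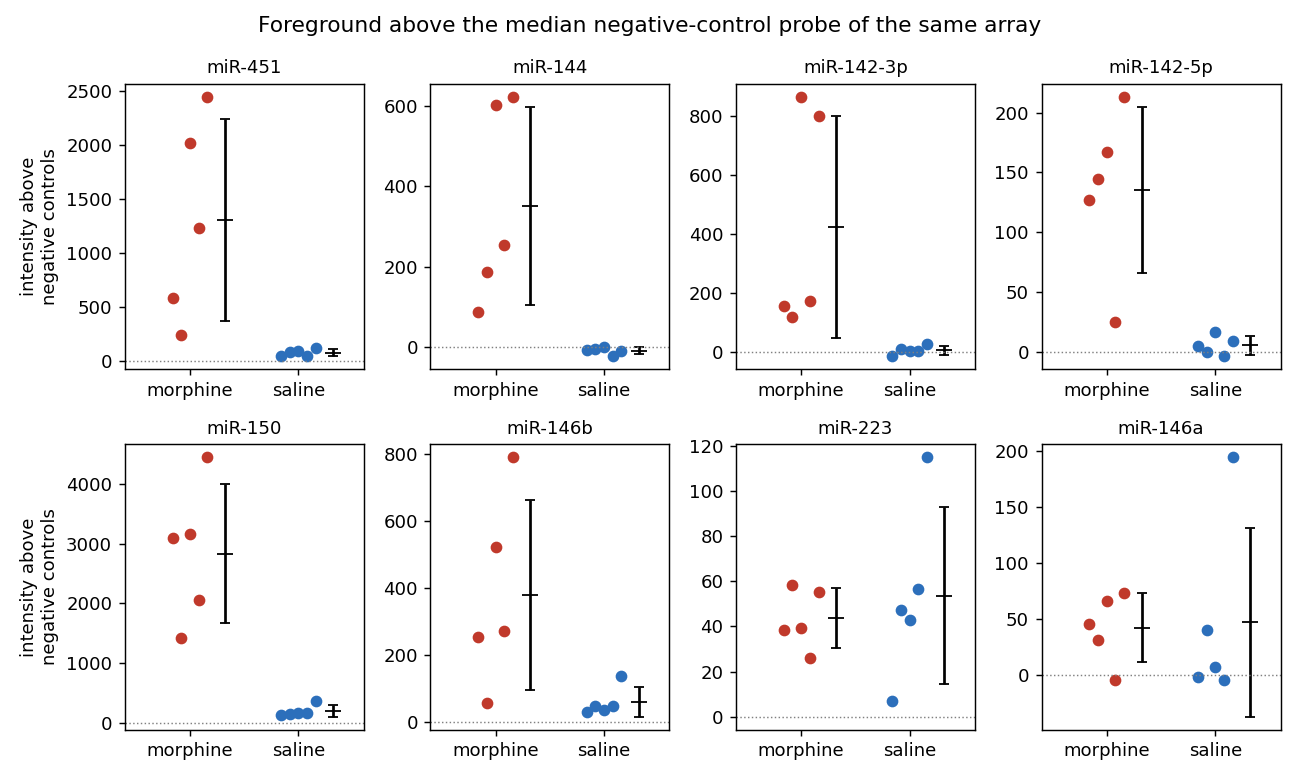
Foreground intensity above the median negative-control probe of the same array, in intensity units on linear axes that differ between panels, with morphine at left and saline at right. Points are arrays, and black bars are mean ± SD (n = 5). miR-144 and both arms of miR-142 sit around 0 on saline arrays, and miR-223 and miR-146a overlap between the groups.

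The members were mostly highest in the same morphine rats, with differing orders below these. Morphine replicates 3 and 5 were the 2 highest arrays for miR-451, miR-144, miR-142-3p, miR-142-5p, miR-150 and miR-146b, and replicate 2 was the lowest for miR-451, miR-142-3p, miR-150 and miR-146b. For miR-146a replicates 3 and 5 were also highest, but all its values were below the detection minimum. The sum of the 8 members, with values below 0 counted as 0, was 3408, 1421, 8774, 3494 and 9330 on the morphine arrays, against 114.5, 45.8, 226, 28.3 and 181.9 on the saline arrays. Values between 0 and the detection minimum were included. The 6 neuron miRNAs summed to 67604, 68711, 99402, 32068 and 105901 on the same morphine arrays. Replicates 3 and 5 were highest there too, but replicate 4 was lowest, whereas the members' sum was lowest on replicate 2. With morphine replicates 3 and 5 averaged and counted as 1 sample, miR-451 (log2 difference 4.20, adjusted p = 0.000865), miR-144 (2.25, 0.0336), miR-142-3p (2.32, 0.0311) and miR-150 (4.71, 0.000168) stayed past the limma test and miR-142-5p (1.20, 0.094) did not. miR-146b, in the fit of all 679 probes, did not pass either (2.49, 0.105).

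**Figure D3:**
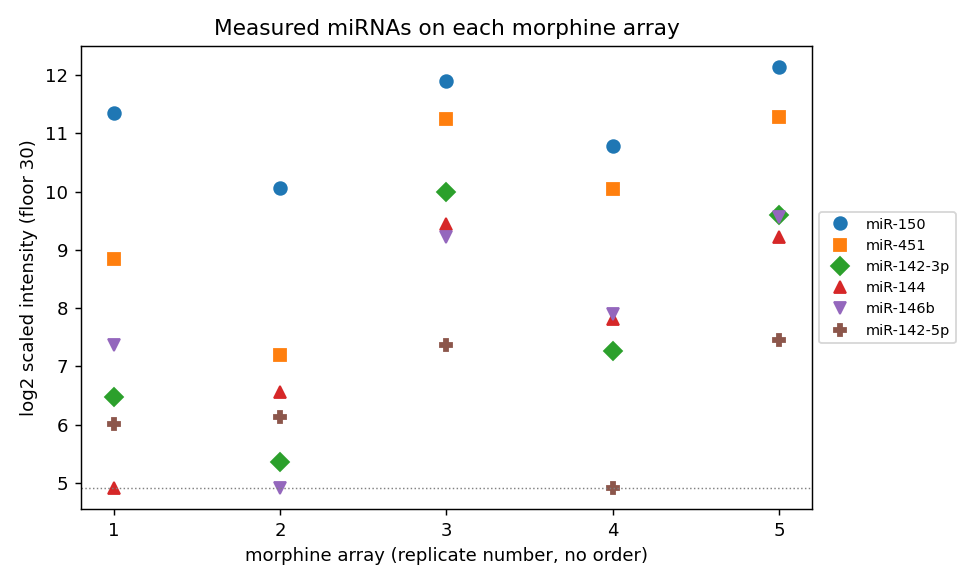
Log2 scaled intensity (floor 30, dotted line) of the 6 members that reached 30 on at least 4 morphine arrays, for each morphine array. Replicates 3 and 5 hold the highest values of all 6, and miR-144, miR-146b and miR-142-5p are each at the floor on 1 array.

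The precision of a single array is given by its 4 spots per probe. Those of miR-150 had a coefficient of variation of 5.27% to 67.7% (median 9.31%) over the morphine arrays, those of miR-451 1.23% to 79.4% (median 25.1%) and those of miR-142-3p 8.5% to 75.3% (median 41.1%). The largest coefficient of variation of both miR-451 and miR-150 was on morphine replicate 2, their lowest morphine array, where a low mean also raises it. There the spots of miR-451 ran from 67 to 386 and those of miR-150 from 478 to 2403.

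The opposite strands of the members' hairpins, which are usually degraded, were mostly below the detection minimum. miR-451*, miR-144*, miR-150*, miR-223*, miR-146a* and miR-146b* each reached 30 on at most 1 array of a group, and none entered the 301-probe fit. Their groups overlapped, and none passed in the fit of all 679 probes. Their means were −47.38 to −5.551 for morphine and −233.8 to −71.59 for saline, a difference that carries the background offset between the groups. Above the median negative control, miR-223* lay at 20.8 to 54.2 on morphine arrays and at 12.8 to 161.8 on saline arrays, and it exceeded every negative control on 1 morphine and 2 saline arrays. Both arms of the miR-142 hairpin, in contrast, were detected on all 5 morphine arrays.

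The miRNAs whose profile over the 10 arrays was most like that of a member lay outside the blood and immune lists. The arrays compared hold the difference between the groups, which every one of these profiles shares. Likeness was the root-mean-square difference of the centered log2 values, where 0 means the same profile. Nearest to miR-150 were miR-124 and miR-138 (0.76 each, against a median of 2.50 over all probes fitted). Nearest to miR-451 were miR-551b (0.38) and miR-7a (0.51, median 2.49), and nearest to miR-142-3p were miR-328a (0.54) and miR-106b (0.56, median 1.91). Among the members themselves, miR-144 and miR-142-3p were closest (0.68), and miR-144 differed more from miR-451, its neighbor in the genome (1.25).

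Other miRNAs of red cells, white cells and inflammation, 14 probes in all, did not share a direction. Of the 9 in the 301-probe fit, 2 rose, 1 fell and 6 did not pass, and the other 5 reached 30 on fewer than 5 arrays. In the fit of all 679 probes, where the 14 entered, 2 rose, 1 fell and 11 did not pass. The red and white cell probes among them had log2 differences of 0.19 to 2.46, several with most arrays near the floor. Those of the inflammation probes ran from −6.95 to 4.54. There the white cell miRNA miR-181b rose (at least 4.87-fold higher in morphine, adjusted p = 0.0379, limma). It had 4 morphine arrays and 0 saline arrays at 30 or more, and its groups did not overlap. Nor did those of miR-652, which did not pass (adjusted p = 0.208, limma). miR-132, which immune stimuli induce and which neurons also make, averaged 851.6 ± 573 in morphine and −96.56 ± 102 in saline (SD, n = 5 each). It was at least 21.1-fold higher in morphine (adjusted p = 1.68e-05, limma). miR-185, present in red cell precursors, rose by 2.46 on the log2 scale (adjusted p = 0.0227, limma), but not in the fit without the filter (0.103). miR-21, which rises in many inflamed and injured tissues, was far lower in morphine, at 49.23 ± 42.7 against 9184 ± 8978 in saline (log2 difference −6.95, adjusted p = 1.42e-05, limma). The summed level of the 14 was 13020 to 45812 on morphine arrays and 9591 to 43493 on saline arrays, and these ranges overlap. The sum is weighted to its bright probes, such as miR-125b-5p (17854 ± 11044 and 12430 ± 10490), and does not describe the red and white cell miRNAs among the 14. The red cell miRNA miR-16 averaged 1059 ± 1104 in morphine and 162.4 ± 393 in saline and did not pass (adjusted p = 0.229, limma).

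Markers of the vessel wall and connective tissue moved both ways. Of 7 probes, 2 rose, 3 fell and 2 did not pass, in the fit of 301 probes in which 32.6% rose and 11.6% fell. The endothelial miR-126 was at least 26-fold higher in morphine (adjusted p = 0.00178, limma) and its opposite strand miR-126* at least 8.77-fold (adjusted p = 0.00295), as both were below 30 on every saline array. miR-199a-5p, a miRNA of fibroblasts and smooth muscle, averaged 21.11 ± 19.5 in morphine and 7542 ± 3959 in saline and fell (adjusted p = 9.31e-08, limma). It reached 30 on 1 of 5 morphine arrays, so the size of its fitted difference (−7.63 on the log2 scale) depends on the floor. miR-199a-3p averaged −13.88 ± 31.6 and 421.1 ± 267, which was at least 10.5-fold lower in morphine. The sum of the 7 was 1832 to 8126 on morphine arrays and 9527 to 21919 on saline arrays, with no overlap. Endothelial and connective tissue markers, like those of neurons, thus differed between the groups together with the blood miRNAs, and their part in the blood result was not tested.

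Across the alternatives to the processing, miR-451 lost its call 1 time in 26, with the methods' t-test (adjusted p = 0.0797), miR-144 6 times in 23, miR-142-3p 6 times in 25 and miR-142-5p 16 times in 24, with its sign turned in 1 of these. The other settings gave no value because the member no longer reached the detection filter. These were 3 for miR-144 (the spot median, the deposited value table and the probes chosen anew without morphine replicate 2), 1 for miR-142-3p and 2 for miR-142-5p. The plot of fold changes under other ways of processing shows that miR-150 and miR-451 stayed apart from 0 throughout, at 2.81 to 5.21 and 1.96 to 5.74. The median of the 301 probes was 0.45 on the log2 scale in the main fit and between −0.46 and 0.59 under the other scalings. Relative to that median miR-451 was 2.97 to 4.46 higher, miR-150 4.22 to 4.60, miR-144 1.69 to 2.66, miR-142-3p 1.76 to 2.73 and miR-142-5p 0.85 to 1.45. These ranges leave out changes of the background. With normexp the values were 2.17, 3.02, 1.09, 1.14 and 0.17 in the same order. On the negative-control baseline, over 434 probes, miR-451 was 3.43 higher, miR-150 3.57, miR-144 3.19 and miR-142-3p 3.29.

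**Figure D4:**
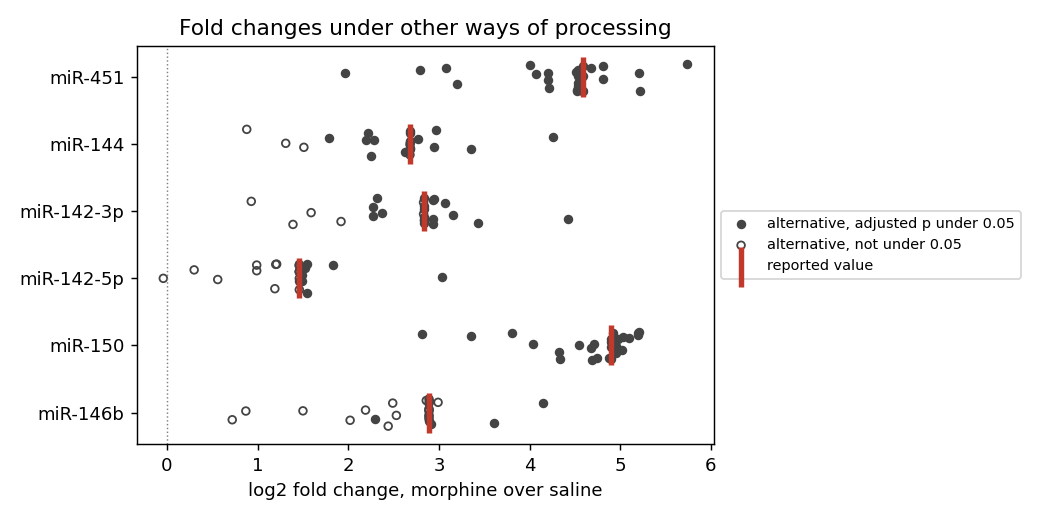
Log2 fold change of morphine over saline for 6 members, 1 row each. The red bar is the reported value (miR-146b from the fit of all 679 probes), and circles are the alternatives, filled where the adjusted p was under 0.05. All circles of miR-150 are filled, and most of miR-142-5p and miR-146b are open.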

How the data were processed

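Per the labeling protocol and the paper, the authors attached the dye Hy3 to RNA (the sample labels' dye field names biotin instead). They ran it on a miRCURY LNA Array, a 1-color array, and scanned with GenePix. The deposited spot table gives linear intensity per spot, as foreground and after background subtraction, and each probe has 4 spots. The deposited value table equaled the spot median (35410 of 35410 values within 1e-06) and was not scaled. No batch was examined, since slide and scan date, like the method of local background, were not given in the sources used here.

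Groups came from the labels. Spots were averaged after background subtraction. Arrays were scaled to a common median over the 120 rat probes that reached 30 on all 10 of them (factors 819.1 to 1281 for morphine and 806.6 to 1101 for saline). Detection (30) was judged before scaling and the floor of 30 set after it. The 301 rat probes that reached 30 on 5 or more arrays entered a two-sided limma test (version 3.58.1, R 4.3.3, lmFit with eBayes), adjusted by Benjamini-Hochberg over all probes fitted, with a threshold of 0.05. Members below this filter took their fold change from the same fit over all 679 rat probes. Exact permutation tests were two-sided. Tables and plots were made in Python 3.11.15 with pandas 2.3.3. The fit was tested on simulated data. The number of arrays limits the precision, and a bound holds for this processing only and carries no sampling error.

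Named were every member and its opposite strand, the 2 probes of smallest p in each other list, and the 2 most alike probes of the 3 brightest fitted members. miR-185, miR-16, miR-181b, miR-652, miR-125b-5p, miR-124, miR-126 and miR-126* were named after their values were seen. Members and lists were chosen with earlier results of these data known. Alternatives changed the background correction, the spot summary, the scaling, the floor, the filter or the test, added a replicate block, or left out 1 array.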

Additional observations from a re-analysis of the deposited data

Results flagged for a closer look

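In 2 of 28 groups of 5 arrays examined, 1 array lay far from the others, where chance would give about 1 in 20. Both were opposite strands, and in both the array was morphine replicate 4. miR-451* had 80.5 on that array and −22.3 on the nearest other morphine array, a gap of 0.818 of the whole range. miR-150* had −0.6, against −38.6 on the nearest (0.776 of the range). All 6 opposite strands were highest on morphine replicate 4, which also had the lowest local background (63) and was the only array whose negative controls had a median above 0 after background subtraction (9.5). Above the negative controls miR-451* still lay at 83.5 on that array and at 4.8 to 25.5 on the other morphine arrays, whereas miR-150* lay at −11.5 there and at −10 to 4 on the others.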

How the results depend on the processing

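The count of members past the test was 5 of 5 fitted. It was 2 with normexp background, 3 with quantile scaling, 2 with cyclic loess, 3 without the filter, 2 with a floor of 100, 2 with the methods' t-test and 3 with the exact permutation test, and 4 to 5 with each array left out in turn. After the data were seen, 2 more alternatives were added: 2 members passed without morphine replicate 2 with the probes chosen anew (only 2 of them were fitted, among 256 probes), and 4 with morphine replicates 3 and 5 averaged. Of the members on the array, 5 had groups that did not overlap, 1 with normexp, 3 with quantile scaling, 2 with cyclic loess (5 members left in each of the last 2), and 5 to 6 with each array left out. Of all 679 probes, 104 had all morphine arrays higher and 25 all lower, against 25 and 75 with normexp. With 1 array left out, these were 105 to 204 and 25 to 40. Of 301 probes, they were 46 and 39 with quantile scaling and 40 and 39 with cyclic loess. miR-142-5p reversed to −0.04 with normexp. The cause of these changes was not tested. Probes required at 30 on all 10 arrays left no member to fit. Of 301 probes, 98 rose and 35 fell in the main setting, 65 and 69 when scaled over all detected probes, 65 and 54 with quantile scaling, 55 and 57 with cyclic loess and 45 and 50 with normexp, and the methods' t-test called 60 instead of 133.

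With the replicate block 4 members passed, without miR-142-5p, and 107 probes in all. The block also ended the call of miR-146b (adjusted p = 0.129, limma) and changed no other member's call. Same-numbered arrays did not deviate together (r = 0.02, 0.05, −0.17, −0.40 and 0.04), and no array was most like its own number. These values cannot show whether same-numbered samples were handled together, and the labels give only the number. Saline levels of miR-144, miR-142-3p, miR-142-5p and miR-146b were below 30 on every array, and signal over background limits what can be said of them.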
